A study of Mus musculus with 6 samples.

Results

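The response of mouse CD4+ T cells to interleukin-6 (IL-6) was taken from 4 of the 6 arrays of the series. The 4 arrays are those titled for control supernatant and for IL-6, with 2 replicates each. All cells were CD4+ T cells of mouse spleen, isolated with magnetic beads and kept for 12 hours in medium with 10% serum, with anti-CD3/CD28 antibody at 1 µg/ml to trigger the T cell receptor and its co-receptor. The group ConCM received control conditioned medium, and the group IL6_ConCM received the control medium with IL-6 at 20 ng/ml. A further pair of arrays, PlGFCM, received medium from HEK-293 clones (a human embryonic kidney line) that overexpress PlGF2, a form of placental growth factor, and is used here for the shared estimate of the spread and for comparison. The strain, age and sex of the mice, the cells that made the control medium and the source of the IL-6 are not stated in the labels. Whether replicates were separate mice or cultures is unstated too, so p-values measure only how far these samples spread, and that spread may be technical.

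IL-6 binds the receptor chain Il6ra, which then pairs with the signal-transducing chain gp130, encoded by Il6st. The kinases Jak1, Jak2 and Tyk2 bound to gp130 phosphorylate STAT3, which enters the nucleus and switches on target genes, among them Socs3, whose product inhibits the receptor. In CD4+ T cells IL-6 is known for driving the Th17 fate together with TGF-beta, and for helping follicular T cells through IL-21.

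The arrays report a log2 level for each probe set, a group of probes for 1 transcript, and 1 probe set with a single gene symbol was kept for each of 22180 genes. Over all 41345 probe sets the median log2 level ran from 5.47 to 5.51 on the 6 arrays. Pearson's r, taken across genes that are no replicates of each other, was 0.995 between the ConCM arrays and 0.995 between the IL6_ConCM arrays, and 0.994 to 0.995 between arrays of these 2 groups. The median absolute difference between replicates was 0.121 log2 units in both ConCM and IL6_ConCM. PlGFCM replicate 2 stood apart in Xist, the RNA of the inactive X chromosome, at a log2 level of 8.38 against 3.58 to 3.95 on the other 5 arrays. Xist was at 3.88 and 3.94 in ConCM and at 3.58 and 3.86 in IL6_ConCM, so the arrays compared here were alike in this respect. Among T cell markers Cd3e, a chain of the CD3 complex, lay between 11.84 and 12.17 on the 4 arrays and Cd4 between 11.22 and 11.39. Cd8b1, a marker of CD8 T cells, lay between 7.81 and 8.31 on these arrays, and the purity of the cells was not tested. Levels of different probe sets cannot be set against each other, and the small number of arrays sets the precision.

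The comparison of IL6_ConCM with ConCM addressed what IL-6 adds in cells cultured with anti-CD3/CD28 antibody. Of 22180 genes, 25 changed, which is 0.113% of those tested, and 19 rose (0.0857%) and 6 fell (0.0271%). The words rose, fell and changed stand for genes where limma, a linear model that shares information on the spread across genes, gave a Benjamini-Hochberg adjusted p under 0.05. The genes that rose include those of surface proteins (Ly6g, Emp1, Muc1, Selp, Il1r1, Tnfrsf23), a calcium pump (Atp2b4) and signalling proteins (Malt1, Map3k8). Others encode a member of the serpin family (Serpinb5) and a granule protease (Gzma), and Plac8 rose as well. Those that fell were the transcription factor genes Eomes and Nr4a3, Ifit1, Oasl2 and Usp18, which interferon induces, and Lad1, an anchoring filament protein gene. In all 25 genes both IL6_ConCM arrays lay on 1 side of both ConCM arrays, as they did in 34.1% of all genes tested. The same arrays were used to pick the 25 genes. Their separation, here and where single genes are described below, is therefore largely built in and adds no support. Of the 25 genes, 9 changed by at least 2-fold, and 2, both of which rose, are predicted models that are counted and not named. The number of genes that changed was 2 without ConCM replicate 2, 6 without IL6_ConCM replicate 2, 41 without ConCM replicate 1, 12 without either single PlGFCM array and 1 when the fit ignored the dependence of the spread on the level, so the length of this list rests on few arrays.

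**Figure D1:**
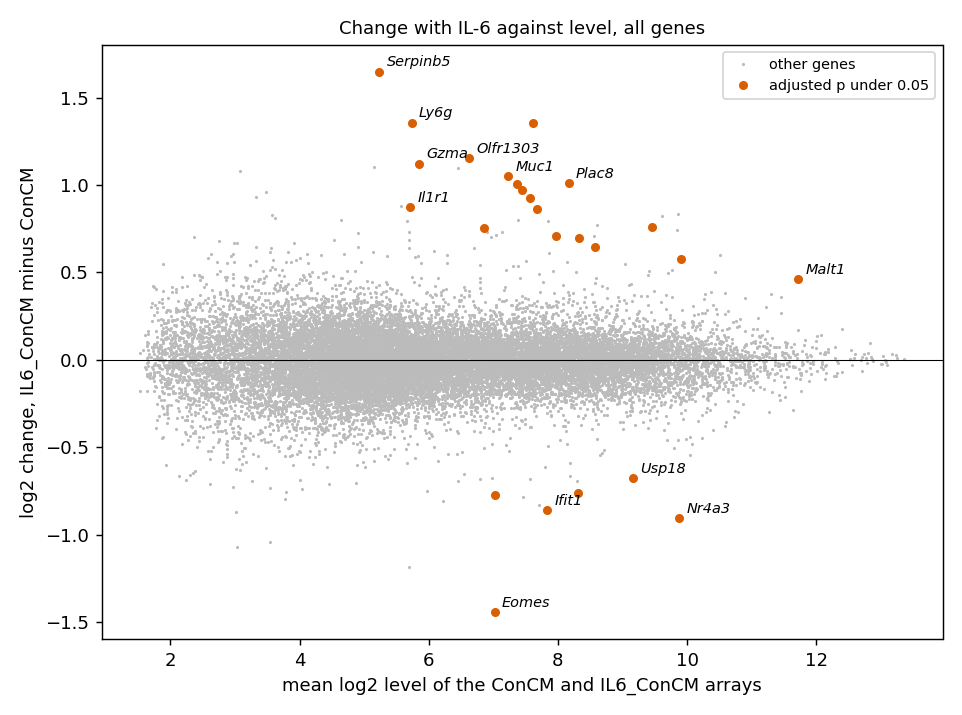
Each point is 1 of the 22180 genes. The x axis is the mean log2 level of the 4 ConCM and IL6_ConCM arrays and the y axis the log2 change, IL6_ConCM minus ConCM; orange points are the 25 genes with a limma adjusted p under 0.05, from Serpinb5 at 1.65 to Eomes at -1.44, and grey points are the other genes.

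The gene with the largest increase was Serpinb5, which encodes maspin, a member of the serpin family. Its log2 level was 4.48 and 4.34 on the ConCM arrays and 6.28 and 5.84 on the IL6_ConCM arrays. The ConCM levels lay below the median of all probe sets, 5.48 on both arrays, so the increase starts from a low level. The same holds for Ly6g, Gzma and Il1r1, whose ConCM levels, given below, were under this median on both arrays. The lower IL6_ConCM array stood 1.36 log2 units above the higher ConCM array, a wider gap than the spread within either group. The log2 change was 1.65 ± 0.16 (SE) and the limma adjusted p 0.00444, a 3.14-fold higher level. Serpinb5 did not pass when the fit ignored the dependence of the spread on the level (limma adjusted p = 0.0867). It was too low to enter the fit of genes at or above the median level. Ly6g, the gene of a surface antigen known from neutrophils, was at 5.08 and 5.04 in ConCM and at 6.48 and 6.35 in IL6_ConCM. That made a log2 change of 1.36 ± 0.11, or 2.56-fold (limma adjusted p = 0.00253), and Ly6g passed in each of the 16 alternative fits. Its replicates lay close together in both groups, and it had the smallest p of all genes. Probe sets of the Ly6 family can bind related transcripts, so this assignment is uncertain. Serpinb5 did not pass without ConCM replicate 2 (limma adjusted p = 0.0580) and passed without any other single array.

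Gzma, the gene of the granule protease granzyme A, was at 5.41 and 5.18 in ConCM and at 6.50 and 6.34 in IL6_ConCM, a log2 change of 1.12 ± 0.13 (SE). Muc1, a transmembrane mucin gene, was at 6.91 and 6.51 in ConCM and at 7.76 on both IL6_ConCM arrays, a change of 1.05 ± 0.13. Plac8 was at 7.94 and 7.38 in ConCM and at 8.69 and 8.65 in IL6_ConCM, a change of 1.01 ± 0.15. In Muc1 and Plac8 the ConCM arrays were further apart than the IL6_ConCM arrays, and no groups overlapped. Olfr1303, named for an olfactory receptor, rose by 1.15 ± 0.16 from 6.25 and 5.84 to 6.99 and 7.41, and its probe set too may bind related transcripts. Limma adjusted p was 0.00692 for Gzma, 0.00804 for Muc1, 0.0267 for Plac8 and 0.0186 for Olfr1303. Without ConCM replicate 2 none of these 4 genes passed (limma adjusted p = 0.0683, 0.0580, 0.0724 and 0.147). Gzma passed without any other single array, and Muc1 was lost also without IL6_ConCM replicate 2 (0.0601). Plac8 passed in a single fit that left out an array, ConCM replicate 1 (0.00237), and Olfr1303 passed without ConCM replicate 1 (0.00946) or IL6_ConCM replicate 1 (0.0164) only.

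**Figure D2:**
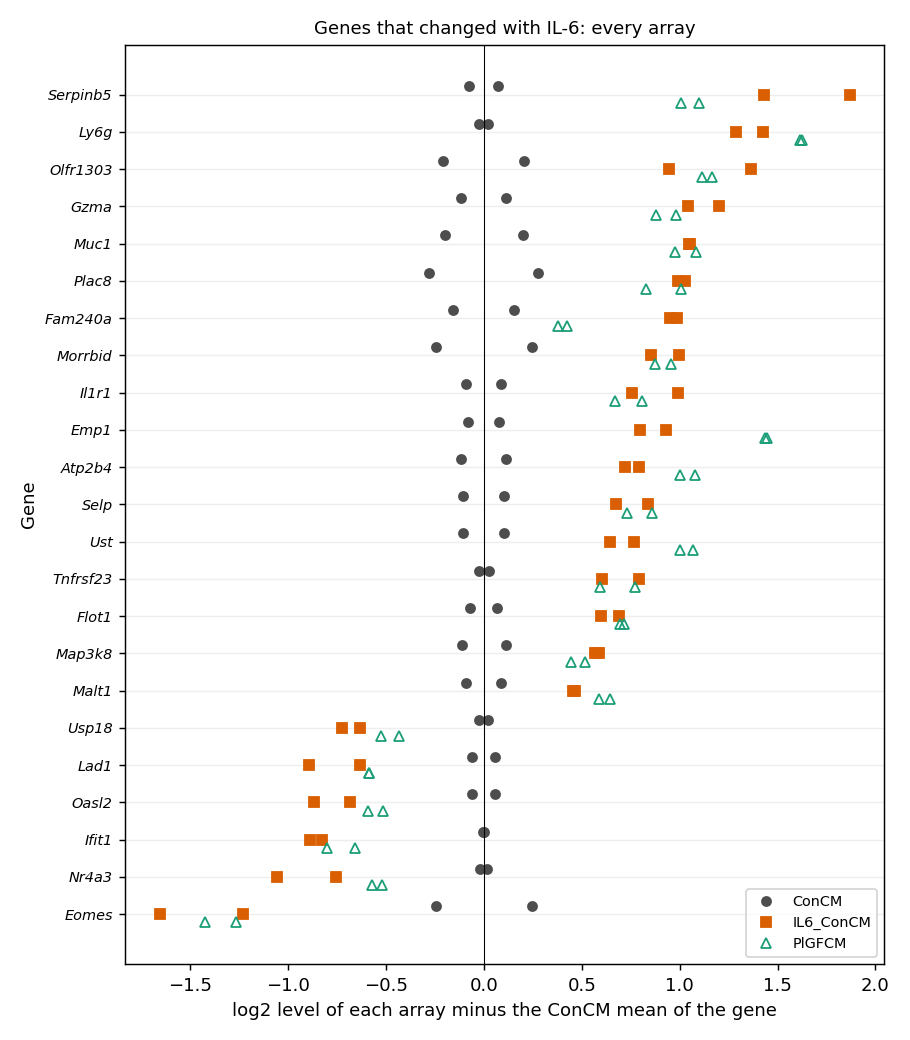
Rows are the 23 named genes that changed. The x axis gives each array's log2 level minus the ConCM mean of that gene, with grey circles for ConCM, orange squares for IL6_ConCM and open green triangles for PlGFCM (2 arrays each). In every row the orange and grey symbols do not overlap, which is largely built in, as the same arrays picked the genes. The nearest are 0.37 log2 units apart for Malt1 and 1.36 for Serpinb5.

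A group of 4 genes that rose encode receptors or other surface proteins of immune cells. Il1r1, the signalling receptor of IL-1, was at 5.19 and 5.37 in ConCM and at 6.04 and 6.27 in IL6_ConCM, a log2 change of 0.87 ± 0.13 (SE). Selp, the adhesion molecule P-selectin, was at 6.58 and 6.36 in ConCM and at 7.31 and 7.14 in IL6_ConCM, a change of 0.76 ± 0.12. Tnfrsf23, a member of the TNF receptor family, was at 7.96 and 8.01 in ConCM and at 8.59 and 8.78 in IL6_ConCM, a change of 0.70 ± 0.10. Both IL6_ConCM arrays lay above both ConCM arrays in each of these 3 genes. Emp1, a membrane protein gene, was at 7.33 and 7.17 in ConCM and at 8.05 and 8.18 in IL6_ConCM, a change of 0.86 ± 0.09, or 1.82-fold. Limma adjusted p was 0.0342 for Il1r1 and Selp, 0.0186 for Tnfrsf23 and 0.00692 for Emp1. Emp1 was the sole named gene of these 23 with a second probe set, which was at 3.24 and 2.98 in ConCM and at 3.32 and 3.33 in IL6_ConCM and did not pass (log2 change 0.22 ± 0.18). With the mean of both probe sets Emp1 had a log2 change of 0.54 and did not pass (limma adjusted p = 0.277). Il1r1 was lost on leaving out any 1 of the 6 arrays (limma adjusted p = 0.0575 to 0.268). Selp passed only without ConCM replicate 1 (0.0434) and Tnfrsf23 only without IL6_ConCM replicate 1 (0.0341). Emp1 was lost without ConCM replicate 2 (0.0580) or IL6_ConCM replicate 2 (0.0552).

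Further genes that rose act inside the cell. Atp2b4, a calcium pump of the plasma membrane, was at 9.19 and 8.96 in ConCM and at 9.80 and 9.87 in IL6_ConCM, a log2 change of 0.76 ± 0.08 (SE). Malt1, a protease and scaffold that links the T cell receptor to NF-kappaB, was at 11.58 and 11.40 in ConCM and at 11.95 and 11.96 in IL6_ConCM. Its change of 0.46 ± 0.06, or 1.38-fold, was the smallest among the 25 genes. Map3k8, a kinase upstream of ERK, rose by 0.58 ± 0.08 from 9.73 and 9.51 to 10.19 and 10.21. Flot1, which encodes the membrane raft protein flotillin 1, rose by 0.64 ± 0.08 from 8.31 and 8.18 to 8.85 and 8.93. Ust, a sulfotransferase gene, rose by 0.71 ± 0.10 from 7.72 and 7.51 to 8.26 and 8.39. In all 5 genes ConCM replicate 2 was the lowest of the 4 arrays. Morrbid, a long non-coding RNA that holds down the death gene Bcl2l11, rose by 0.92 ± 0.14 from 7.34 and 6.85 to 7.95 and 8.10. Fam240a rose by 0.97 ± 0.11 from 7.12 and 6.81 to 7.95 and 7.92. Limma adjusted p was 0.00692 for Atp2b4, 0.0186 for Malt1, Map3k8 and Ust, 0.0147 for Flot1, 0.0342 for Morrbid and 0.00754 for Fam240a. None of these 7 genes passed without ConCM replicate 2 (limma adjusted p = 0.0580 for Atp2b4 and Fam240a, 0.108 for Malt1, 0.144 for Map3k8 and Morrbid, 0.140 for Flot1 and 0.167 for Ust). Atp2b4 and Fam240a were lost also without IL6_ConCM replicate 2 (both 0.0552), and Flot1 (0.115) and Ust (0.141) without that array or either PlGFCM array (0.0596 to 0.0689). Malt1 (0.00475), Map3k8 (0.00776) and Morrbid (0.00389) passed only without ConCM replicate 1, and their limma adjusted p without the other arrays ran from 0.0618 to 0.110, from 0.0739 to 0.144 and from 0.0760 to 0.204.

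The largest decrease was that of Eomes, which encodes eomesodermin, a T-box transcription factor of cytotoxic and memory T cells. It was at 7.99 and 7.50 in ConCM and at 6.52 and 6.09 in IL6_ConCM, so the groups did not overlap although replicates differed in both. The log2 change was -1.44 ± 0.17 (SE), a 2.72-fold lower level, with a limma adjusted p of 0.00804, and Eomes passed without any 1 array other than IL6_ConCM replicate 2 (0.0552). Nr4a3, a nuclear receptor gene induced by T cell receptor signals, was at 10.31 and 10.34 in ConCM and at 9.57 and 9.27 in IL6_ConCM. It fell by 0.91 ± 0.09, or 1.87-fold (limma adjusted p = 0.00533), and was lost without ConCM replicate 2 (0.0580). Its relatives did not pass, with Nr4a1 at a log2 change of -0.20 ± 0.08 and Nr4a2 at -0.19 ± 0.15. Lad1 was at 8.64 and 8.76 in ConCM and at 8.07 and 7.81 in IL6_ConCM, a change of -0.76 ± 0.10 (limma adjusted p = 0.0168). It passed only without ConCM replicate 1 (0.0376) or IL6_ConCM replicate 1 (0.0164).

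The genes of the IL-6 receptor and its signalling chain were measured for 23 of 24 list members, and none passed in limma (5 higher and 1 lower at an unadjusted p under 0.05). Of all 22180 genes 582 were higher and 665 lower at an unadjusted limma p under 0.05, together 5.62%. The ligand gene Il6 was at 5.22 and 5.66 in ConCM and at 4.84 and 4.88 in IL6_ConCM, a log2 change of -0.58 ± 0.15 (SE, limma adjusted p = 0.379). The receptor chain Il6ra was at 9.63 and 9.55 in ConCM and at 9.94 and 9.95 in IL6_ConCM, a change of 0.36 ± 0.07 (limma adjusted p = 0.101). In both genes the groups did not overlap. Il6st, the gene of gp130, was at 10.12 and 10.23 in ConCM and at 10.10 and 10.27 in IL6_ConCM, with a change of 0.01 and a 95% interval from -0.16 to 0.17. Jak1 was at 0.00 (interval -0.12 to 0.12), Tyk2 at -0.09 (-0.27 to 0.09) and Jak2 at 0.17 (0.02 to 0.32), which does not show that the kinases did not change. Stat3 was at 11.18 and 11.12 in ConCM and at 11.21 and 11.24 in IL6_ConCM, a change of 0.08 (interval -0.05 to 0.20). Among inhibitors, Socs3 was at 9.37 and 9.21 in ConCM and at 9.61 and 9.76 in IL6_ConCM, a change of 0.40 ± 0.09 (limma adjusted p = 0.217). A second Socs3 probe set, measured on the same RNA, was at 7.04 and 7.20 in ConCM and at 7.49 and 7.67 in IL6_ConCM. Its change of 0.46 ± 0.11 did not pass either (limma adjusted p = 0.297 over all probe sets with 1 symbol). Socs1 was at -0.09 ± 0.10 and Cish at 0.01 ± 0.07. The most positive change of the list was in a related receptor gene, Il21r, which binds IL-21 and was at 10.32 and 10.03 in ConCM and at 10.66 and 10.69 in IL6_ConCM. Its change of 0.50 ± 0.08 stayed outside the threshold at a limma adjusted p of 0.0586. Of the 23 members, 7 had both IL6_ConCM arrays above both ConCM arrays (30.4%) and 5 had them below (21.7%), where 15.7% and 18.4% of all genes did. The list's median was 0.00, beside -0.01 over all genes.

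Of 26 measured STAT3 target genes of T cells 1 rose, Il1r1, none fell and 25 did not pass, although most had higher levels with IL-6. In 22 of the 26 the log2 change was positive (84.6%, where 46.9% of all genes were positive), and the median was 0.18, running from 0.13 to 0.20 over the alternatives. In 13 of them both IL6_ConCM arrays lay above both ConCM arrays (50%), where 15.7% of all genes did. Among cytokine genes, Il21 was at 9.81 and 9.07 in ConCM and at 10.52 and 10.02 in IL6_ConCM, a change of 0.83 ± 0.21 (SE). Il17f was at 6.66 and 6.69 in ConCM and at 7.16 and 7.62 in IL6_ConCM, a change of 0.71 ± 0.14, and Il10 at 5.96 and 6.01 against 6.33 and 6.83, a change of 0.60 ± 0.15. These 3 did not overlap between groups and did not pass (limma adjusted p = 0.339, 0.108 and 0.290). Il17a was at 5.35 and 5.76 in ConCM and at 5.86 and 5.66 in IL6_ConCM, so its groups overlapped. Il4ra, a receptor chain for IL-4 and IL-13, was just outside the threshold at a change of 0.37 ± 0.06 (limma adjusted p = 0.0550). Fosl2, an AP-1 factor, was at 0.44 ± 0.08 (0.101), Ahr at 0.31 ± 0.11 (0.725), Bcl3 at 0.26 ± 0.07 (0.408) and Maf at 0.22 ± 0.14 (0.981). The survival kinase Pim1 was at 0.02 (interval -0.10 to 0.14) and Pim2 at -0.20 ± 0.07 (limma adjusted p = 0.693).

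**Figure D3:**
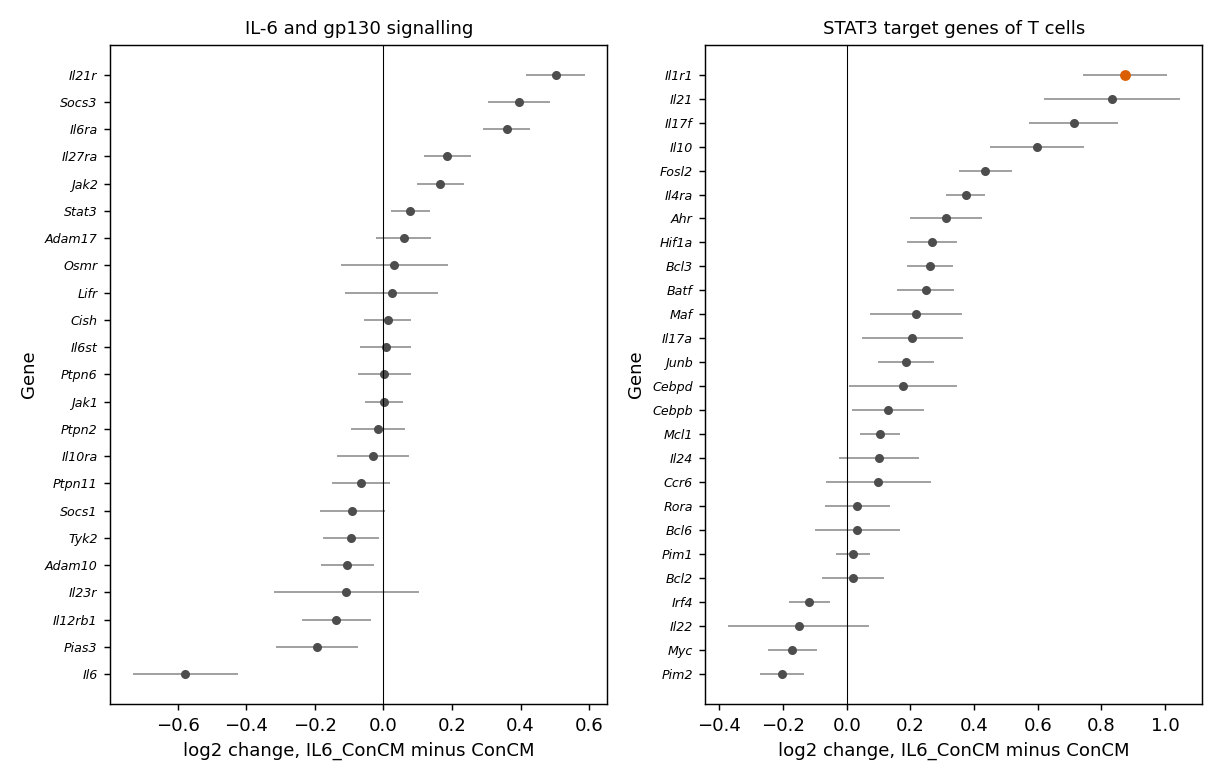
Rows are the measured members of 2 lists, IL-6 and gp130 signalling (23 genes, left) and STAT3 target genes of T cells (26 genes, right). The x axis is the log2 change, IL6_ConCM minus ConCM, bars are SE, and the orange point, Il1r1 at 0.87, is the member that passed; on the right 22 of 26 points lie above 0.

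To set the sequences beside these values, promoters of 2 genes are shown, both from the RefSeq table of build GRCm38.p6: Socs3, the classical STAT3 target, and Emp1, the gene that rose and holds STAT site letters. Each run covers the 250 bases before the annotated gene start, 5′ to 3′ on the gene's strand, at chr11:117969367-117969616 (minus strand) for Socs3 and at chr6:135362681-135362930 (plus strand) for Emp1. Capitals mark the letters TTCNNNGAA, the core of a STAT site, which reads the same on both strands. They begin 154 bases before the start of Socs3, and 120 and 22 bases before the Emp1 start shown. The table holds a second Emp1 start, and the 250 bases before it, chr6:135367243-135367492, do not hold the letters.
Socs3: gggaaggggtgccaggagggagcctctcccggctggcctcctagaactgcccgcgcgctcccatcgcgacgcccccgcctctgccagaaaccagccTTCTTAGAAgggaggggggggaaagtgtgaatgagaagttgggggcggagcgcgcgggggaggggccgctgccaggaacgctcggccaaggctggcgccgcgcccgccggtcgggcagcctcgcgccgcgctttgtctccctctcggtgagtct
Emp1: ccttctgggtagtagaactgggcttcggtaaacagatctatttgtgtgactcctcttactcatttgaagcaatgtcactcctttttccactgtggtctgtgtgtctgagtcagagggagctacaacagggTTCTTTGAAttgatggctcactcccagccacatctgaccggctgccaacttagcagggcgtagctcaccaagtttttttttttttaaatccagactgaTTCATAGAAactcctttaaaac
In windows of 300 bases (250 before to 50 after the start), 8.30% of 32851 promoter windows hold these letters. Counted over genes, with a match in any of a gene's windows, 9.15% of the 16990 genes tested here that are in the table hold them. Promoters of 15 of the 19 genes that rose were in the table, and 1 of the 15 holds them (6.67%). Of the STAT3 target list 2 of 20 do (10%) and of the IL-6 signalling list 2 of 19 (10.5%). A match is a description of letters and not a binding site.

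Most type I interferon-induced genes had lower levels with IL-6. Of 30 measured members 3 fell (Ifit1, Oasl2 and Usp18), none rose and 27 did not pass. At an unadjusted limma p under 0.05 there were 17 lower and 0 higher, where 665 of all 22180 genes were lower and 582 higher. In 29 of 30 the log2 change was negative (96.7%, where 53.1% of all genes were negative), and the median was -0.33, beside -0.01 over all genes. In 21 members both IL6_ConCM arrays lay below both ConCM arrays (70%, where 18.4% of all genes did), and in 0 members above (15.7% of all genes). Set against each gene's mean over the 6 arrays, the list's median was 0.27 and 0.11 in ConCM, -0.13 and -0.14 in IL6_ConCM and -0.04 and -0.07 in PlGFCM. ConCM replicate 1 was thus the highest array, and the median change was -0.23 without it and -0.39 without ConCM replicate 2.

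Ifit1, an antiviral protein that binds foreign RNA, was at 8.27 on both ConCM arrays and at 7.44 and 7.38 in IL6_ConCM, a log2 change of -0.86 ± 0.09 (SE) or a 1.81-fold lower level. Oasl2, of the oligoadenylate synthetase family, was at 7.47 and 7.35 in ConCM and at 6.54 and 6.73 in IL6_ConCM, a change of -0.77 ± 0.11. Usp18, the protease that removes ISG15 from proteins and restrains the interferon receptor, was at 9.53 and 9.49 in ConCM and at 8.78 and 8.88 in IL6_ConCM, a change of -0.68 ± 0.08. The gap between groups exceeded the spread within them in each of the 3 genes. Limma adjusted p was 0.00692 for Ifit1 and Usp18 and 0.0186 for Oasl2. Without ConCM replicate 2 none of these passed (limma adjusted p = 0.0580 for Ifit1 and Usp18 and 0.113 for Oasl2). Ifit1 was lost also without IL6_ConCM replicate 2 (0.0552), and Oasl2 without any 1 of the 6 arrays (0.0601 to 0.142).

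Members that did not pass but did not overlap between groups included Isg15, the ubiquitin-like modifier, at 8.20 and 7.99 in ConCM and at 7.65 and 7.56 in IL6_ConCM (log2 change -0.49 ± 0.10, limma adjusted p = 0.125). Others were Rsad2, the antiviral enzyme viperin, at -0.54 ± 0.12, Cmpk2 at -0.54 ± 0.12 and Ifit2 at -0.52 ± 0.14. Among regulators Irf9, a subunit of the interferon-activated complex ISGF3, was at 9.30 and 9.29 in ConCM and at 8.99 and 9.01 in IL6_ConCM, a change of -0.29 ± 0.07, and Irf7 at -0.34 ± 0.12. Stat2 was at -0.15 ± 0.11 with overlapping groups, and Oas2 at 0.08 ± 0.13 was the single positive member. Interferon genes themselves did not pass: Ifng was at 7.45 and 6.83 in ConCM and at 6.76 and 6.16 in IL6_ConCM (-0.68 ± 0.21, limma adjusted p = 0.556), and Ifnb1 at -0.24 ± 0.15. The receptor genes Ifnar1 (-0.03 ± 0.08) and Ifnar2 (-0.08 ± 0.08) did not pass either.

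**Figure D4:**
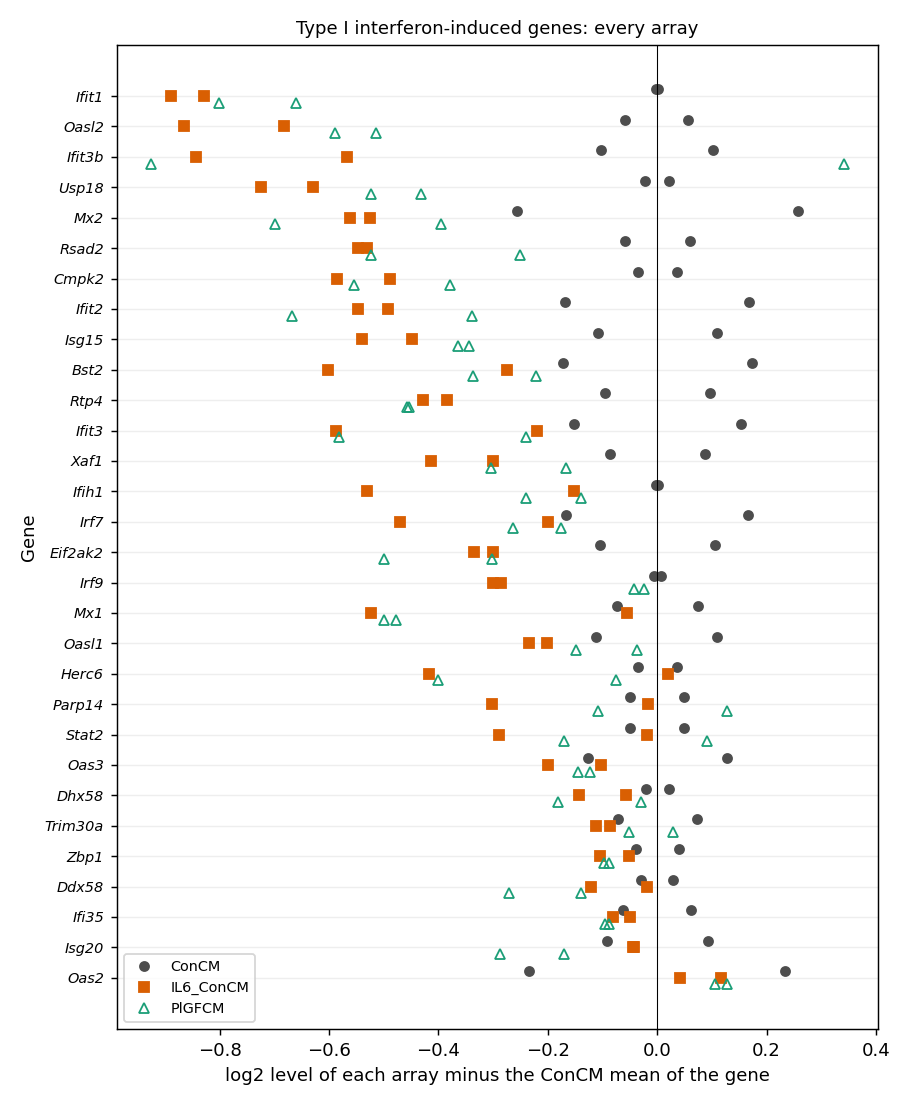
Rows are the 30 measured interferon-induced genes. The x axis gives each array's log2 level minus the ConCM mean of that gene, with grey circles for ConCM, orange squares for IL6_ConCM and open green triangles for PlGFCM (2 arrays each); in 21 rows both orange squares lie left of both grey circles.

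Promoters of 3 interferon-induced genes show how the letters of the interferon-stimulated response element, a pair of GAAA half-sites with 2 bases between them, on either strand, vary within the list. They were Ifit1 (chr19:34640639-34640888, plus strand), Isg15 (chr4:156200819-156201068, minus strand) and Oasl2 (chr5:114896684-114896933, plus strand), again as the 250 bases before the start in RefSeq's GRCm38.p6 table, with matches in capitals. Ifit1 has 2 matches, which begin 104 and 85 bases before the start and read as the reverse complement. Isg15 has 3 that overlap, from 78 bases before the start, and these letters are not in the Oasl2 window.
Ifit1: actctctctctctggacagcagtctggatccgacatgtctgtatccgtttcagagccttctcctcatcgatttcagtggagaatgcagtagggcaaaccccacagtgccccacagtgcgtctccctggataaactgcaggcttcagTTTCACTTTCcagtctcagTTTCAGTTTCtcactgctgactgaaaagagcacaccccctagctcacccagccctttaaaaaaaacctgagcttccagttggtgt
Isg15: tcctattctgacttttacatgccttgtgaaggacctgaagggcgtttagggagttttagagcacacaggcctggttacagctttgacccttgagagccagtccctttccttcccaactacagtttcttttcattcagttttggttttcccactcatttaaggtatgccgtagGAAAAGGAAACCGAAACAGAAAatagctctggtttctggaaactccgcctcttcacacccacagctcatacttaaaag
Oasl2: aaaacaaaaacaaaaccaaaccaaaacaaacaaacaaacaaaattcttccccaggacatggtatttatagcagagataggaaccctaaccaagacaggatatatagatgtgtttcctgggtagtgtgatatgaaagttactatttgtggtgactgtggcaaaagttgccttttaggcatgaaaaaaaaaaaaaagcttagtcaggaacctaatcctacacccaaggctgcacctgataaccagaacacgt
In windows of 300 bases, 12 of the 22 list members in the table hold the element (54.5%), where 3.87% of the 16990 tested genes in the table do (3.44% of 32851 windows). Of the 6 genes that fell 5 were in the table, and Ifit1 and Eomes hold it (40%). Of the 19 genes that rose 15 were in the table, and 1, Gzma, holds it (6.67%).

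Th1 and cytotoxic genes moved in both directions. Of 29 measured 1 rose (Gzma), 1 fell (Eomes) and 27 did not pass, with a median of 0.01. Tbx21, the gene of the Th1 factor T-bet, was at 9.004 and 8.931 in ConCM and at 8.661 and 8.241 in IL6_ConCM, a log2 change of -0.52 ± 0.12 (SE, limma adjusted p = 0.230). Gzmb, the protease granzyme B, was at 9.09 and 8.88 in ConCM and at 9.04 and 8.79 in IL6_ConCM, so its groups overlapped. Prf1, the pore protein perforin, was at 0.33 ± 0.10 and Ctsw, which encodes cathepsin W, at 0.41 ± 0.08, and neither passed. In 8 members both IL6_ConCM arrays were above both ConCM arrays and in 8 they were below (27.6% each, where 15.7% and 18.4% of all genes were).

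Other helper T cell lists held no gene that passed apart from Il1r1. On the Th17 list 1 of 22 rose, Il1r1, and the median was 0.15 (0.06 without ConCM replicate 1). Foxp3, the factor of regulatory T cells, was at 10.68 and 10.96 in ConCM and at 10.76 and 11.00 in IL6_ConCM, a log2 change of 0.06 with a 95% interval from -0.16 to 0.28. None of 16 regulatory T cell genes passed in limma (2 higher and 0 lower at an unadjusted p under 0.05), and the highest change was that of the inhibitory receptor Tigit at 0.77 (limma adjusted p = 0.153). None of 13 follicular helper genes and none of 11 Th2 genes passed in limma (2 and 3 higher and 1 lower each at an unadjusted p under 0.05). Of all genes 5.62% were higher or lower at that p. Gata3, the Th2 factor, was at -0.13 ± 0.11, and Ccr8, a chemokine receptor gene of Th2 and regulatory T cells, at 8.46 and 8.59 in ConCM and at 7.79 and 7.94 in IL6_ConCM. The change of Ccr8, -0.66 ± 0.11, lay just outside the threshold (limma adjusted p = 0.0550). Tgm2, a transglutaminase gene at 0.82 ± 0.13 (0.0550), and Adamtsl4 at 0.71 ± 0.12 (0.0551) were close to it as well.

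Of the lists of growth and activation, 4 had small negative medians and no member that passed in limma: ribosome biogenesis, the G1 and S phases, cholesterol synthesis, and surface and cytokine genes. At an unadjusted p under 0.05 there were 3 lower ribosome biogenesis genes, 4 of the G1 and S phases, 2 of cholesterol synthesis and 3 surface or cytokine genes, with 0 higher. Of all 22180 genes 665 were lower and 582 higher at that p. Of 19 ribosome biogenesis genes 18 had a negative log2 change, with a median of -0.15 that ran from -0.25 without ConCM replicate 2 to -0.02 without IL6_ConCM replicate 2. Of 22 genes of the G1 and S phases 19 were negative, with a median of -0.12 (-0.20 without IL6_ConCM replicate 1 and -0.05 without IL6_ConCM replicate 2). The 14 measured mitosis genes, 8 of them positive, had a median of 0.01. On the cholesterol synthesis list 13 of 16 were negative with a median of -0.08 (-0.13 without ConCM replicate 1 and -0.06 without ConCM replicate 2), and in 10 both IL6_ConCM arrays lay below both ConCM arrays (62.5%, where 18.4% of all genes did). Of 17 surface and cytokine genes of T cell activation 15 were negative with a median of -0.10 (-0.05 without ConCM replicate 1). On the list of the amino acid and integrated stress response 11 of 15 were negative and none passed in limma (0 higher and 4 lower at an unadjusted p under 0.05). Its median of -0.10 ran from -0.20 without ConCM replicate 2 to 0.03 without ConCM replicate 1. Il2ra, the high-affinity chain of the IL-2 receptor, was at 12.18 and 12.13 in ConCM and at 12.19 and 12.24 in IL6_ConCM, and Cd69, an early activation marker, was at -0.23 ± 0.09. Among activation-induced transcription factors 1 of 18 fell, Nr4a3, while 11 were positive and the median was 0.03, and Ier3, a stress-response gene, was at 0.55 ± 0.12 (SE, limma adjusted p = 0.147).

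Markers of other cell types that a spleen preparation could hold were measured as well. Among B cell markers none of 14 passed in limma (0 higher and 2 lower at an unadjusted p under 0.05) and the median was 0.00, with 7 positive and 7 negative members, from Fcer2a at -0.49 ± 0.13 (SE) and Ms4a1 at -0.31 ± 0.12 to Cd79b at 0.22 ± 0.13 and Cr2 at 0.32 ± 0.22. An immunoglobulin kappa variable segment, not on that list, was just outside the threshold at 4.996 and 5.278 in ConCM and at 6.121 and 5.910 in IL6_ConCM (log2 change 0.88 ± 0.14, limma adjusted p = 0.0550). Of 16 myeloid markers 1 rose, Ly6g, and the median was -0.01, with 8 positive and 8 negative members. Set against each gene's mean over the 6 arrays, the list's median was -0.09 and -0.02 in ConCM and -0.03 and -0.08 in IL6_ConCM. Both IL6_ConCM arrays lay above both ConCM arrays in 3 members (18.8%, where 15.7% of all genes did). They lay below them in 4 (25%, where 18.4% of all genes did). Lyz2, a lysozyme gene, was at 0.33 ± 0.16 and its relative Lyz1 at -0.40 ± 0.13, and the neutrophil genes S100a8 and S100a9 were at -0.14 ± 0.16 and -0.33 ± 0.18. None of these 4 genes passed. Of 11 NK and CD8 T cell markers Gzma rose and Eomes fell, while Cd8a was at -0.16 and Ncr1 at 0.08. None of 9 dendritic cell markers passed in limma (0 higher and 1 lower at an unadjusted p under 0.05), with a median of -0.14 that ran from -0.19 to -0.02 over the alternatives, and 1 of their 6 negative members, Bst2, is also on the interferon list. None of the 5 measured erythroid and platelet genes passed in limma, and 0 had an unadjusted p under 0.05. For all these marker counts, 5.62% of all genes had an unadjusted limma p under 0.05. CD4 T cell identity genes were positive in 10 of 11 with a median of 0.10 (0.03 without ConCM replicate 2 and 0.17 without ConCM replicate 1). In 1 of them both IL6_ConCM arrays lay above both ConCM arrays (9.09%, where 15.7% of all genes did), and none passed in limma (1 higher and 0 lower at an unadjusted p under 0.05). In bulk samples fewer cells of a type and less RNA per cell cannot be told apart, and the part of these markers in the results was not tested.

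**Figure D5:**
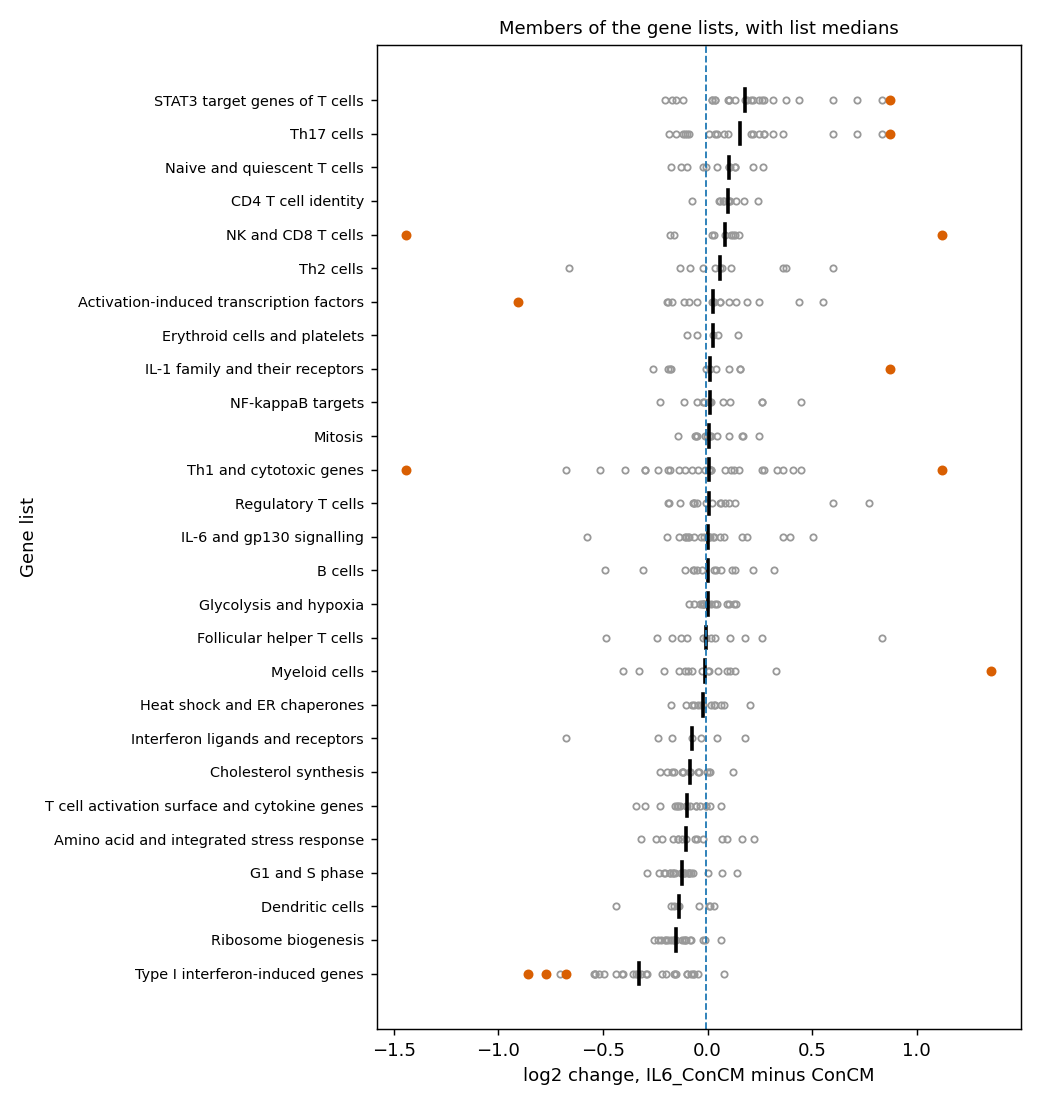
Rows are the gene lists, ordered by the median log2 change, IL6_ConCM minus ConCM, on the x axis. Circles are single genes, orange where the limma adjusted p was under 0.05, black bars are list medians and the dashed line is the median of all genes at -0.01; the interferon list has the lowest median, -0.33, and the STAT3 target list the highest, 0.18.

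Where the response to IL-6 differed from that to PlGFCM was tested directly, as IL6_ConCM minus PlGFCM in the same fit. Of 22180 genes 7 passed (0.0316%) and all of them were lower in IL6_ConCM; at an unadjusted limma p under 0.05 there were 401 higher and 568 lower genes. Hamp, the gene of the iron hormone hepcidin, was at 5.41 and 5.13 in ConCM, at 6.27 and 5.86 in IL6_ConCM and at 7.91 and 7.52 in PlGFCM. Ctsw was at 8.65 and 8.57 in IL6_ConCM against 9.48 and 9.63 in PlGFCM, and Cpt1a, which moves fatty acids into mitochondria, at 7.13 and 7.05 against 7.97 and 8.04. Il1a, the IL-1 alpha cytokine gene, was at 8.51 and 8.19 in IL6_ConCM against 9.45 and 9.21 in PlGFCM. The others were the water channel gene Aqp3, Cpd and the lectin gene Clec4e. The IL6_ConCM and ConCM arrays overlapped in Aqp3, Clec4e and Il1a, while Hamp and Ctsw with IL-6 lay between the other groups, and none of the 7 passed against ConCM. No gene passed without PlGFCM replicate 2, the array that stood apart in Xist, or without IL6_ConCM replicate 2, so these differences rest on single arrays; 5 genes passed without either ConCM array or PlGFCM replicate 1, and 4 without IL6_ConCM replicate 1.

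None of the 25 genes that changed with IL-6 passed in this direct test, with limma adjusted p from 0.107 to 0.998, and 2 were higher and 7 lower at an unadjusted p under 0.05. As IL6_ConCM arrays chose these genes and enter the test too, and as both treatments share the ConCM arrays, values are given side by side. In PlGFCM against ConCM 96 genes changed (0.433%). Ly6g had a log2 change of 1.36 with IL-6 and of 1.62 in PlGFCM, Eomes of -1.44 and -1.34, Nr4a3 of -0.91 and -0.55, and Serpinb5 of 1.65 and 1.05. In PlGFCM against ConCM the limma adjusted p of these genes was 9.62e-05, 0.00908, 0.0286 and 0.018. The ConCM arrays that helped to choose the genes enter these values too, so they are no separate support. Fam240a, at 0.97 with IL-6 and 0.40 in PlGFCM, and Oasl2, at -0.77 and -0.55, did not pass in PlGFCM against ConCM (0.244 and 0.0659). Emp1 was at 8.05 and 8.18 in IL6_ConCM and at 8.70 and 8.69 in PlGFCM, a difference of -0.58 with a 95% interval from -0.79 to -0.37 (limma adjusted p = 0.107). Fam240a was at 7.95 and 7.92 against 7.39 and 7.35, a difference of 0.57 (interval 0.32 to 0.81, limma adjusted p = 0.223). Serpinb5 was at 6.28 and 5.84 against 5.51 and 5.42, a difference of 0.60 (interval 0.25 to 0.94, limma adjusted p = 0.598). These 3 had the largest differences from PlGFCM among the 25 genes, and none passed. The 2 pairs of arrays did not overlap in any of them, but the share of all genes that do so was not computed for this comparison. Eomes was at 6.52 and 6.09 against 6.48 and 6.32 (difference -0.10, interval -0.48 to 0.28), and Muc1 at 7.76 and 7.76 against 7.68 and 7.79 (0.02, interval -0.25 to 0.30). Such intervals do not show that the treatments act alike on these genes. Ifit1 was at 7.44 and 7.38 in IL6_ConCM and at 7.61 and 7.46 in PlGFCM, and the interferon list's median difference was -0.08. The cholesterol synthesis list had a median of -0.36 in PlGFCM against ConCM beside -0.08 for IL-6, with a median difference of 0.28 between treatments and none of its 16 genes passing in limma (11 higher in IL6_ConCM at an unadjusted p under 0.05).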

How the data were processed

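For 6 Affymetrix whole-transcript arrays the authors deposited log2 levels of probe sets, and the submitters' processing notes name Transcriptome Analysis Console. Neither its version nor the background correction and normalization used is stated there. That the scale is log2 was taken from the range of the values, and nothing further was normalized. The platform table lists 25335 of 41345 probe sets, 23521 with 1 gene symbol and 1814 with several, which were left out; 16010 are unnamed here. For each symbol the probe set with the highest mean over the 6 arrays was kept, with no filter on low levels. Limma 3.58.1 in R 4.3.3 (lmFit, eBayes with an intensity trend) was fitted to the 6 arrays together (3 residual and 8.14 prior degrees of freedom) and tested on simulated data. With 2 arrays in each group, the smallest two-sided p of an exact permutation test is 2 in 6. Adjusted p was computed over all 22180 genes. Named genes were all that passed apart from predicted models, up to 4 members of each list with the smallest p, all IL-6 signalling genes, 12 fixed genes and the 6 nearest to the threshold; of these, those that carry a result are described. Prf1, Gzmb, Ifnar1, Ifnar2, Rsad2, Cmpk2, Ifit2, Irf9, Irf7, Stat2, Oas2, Ahr, Pim2, Il2ra, S100a8, S100a9, Cd8a, Ncr1, Nr4a1, Nr4a2 and the genes of the direct comparison with PlGFCM fall outside that rule and were chosen after their values were seen. Promoter sequences and gene symbols came from RefSeq tables. The gene lists and the comparison were chosen with earlier results of these data known. Alternatives covered scaling, filters, probe sets, the prior, array weights, a replicate block and leaving out each array.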

Additional observations from a re-analysis of the deposited data

How the results depend on the processing

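Each result was recomputed with one choice changed at a time. The 25 genes that changed with IL-6 became 53 when the limma fit held genes at or above the median level or at or above the 25th percentile, 47 with array weights, 12 with the 4 arrays of ConCM and IL6_ConCM alone, 1 without the intensity trend and 1247 at an unadjusted p, and between 2 and 41 when 1 array was left out. Genes whose groups do not overlap, 7562, became 4121 above the median level, where fewer genes were tested, and 14539 to 15185 without 1 array of either group, where fewer samples have to be apart. Of 385 listed genes 8 changed, 1 without the intensity trend and 2 to 9 without 1 array. The other causes were not tested. The counts under quantile normalization (26), subtracted array medians (33), the mean of all probe sets (24), a robust prior (29) and all probe sets with 1 symbol (25) stayed within 1.5 times. No result changed direction and passed. None of the 23 named genes that changed passed against PlGFCM in limma under any alternative (lowest adjusted p 0.0694 to 0.556). With the replicate number as a block 16 genes changed, 15 of them among the 25. Deviations of same-numbered arrays correlated at 0.111 between ConCM and IL6_ConCM, -0.0386 between ConCM and PlGFCM and 0.0329 between IL6_ConCM and PlGFCM, which does not settle whether equal numbers share a mouse or a day, and the labels do not say. Limits are 2 arrays in each group, an unstated normalization, and levels near background that cannot be told from absence.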

Other observations

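Several genes outside the lists lay close to the threshold, and they were chosen after their values were seen. Irf8, a transcription factor gene induced by interferon-gamma, was at 10.35 and 10.27 in ConCM, at 9.92 and 9.62 in IL6_ConCM and at 10.20 and 10.20 in PlGFCM, with a log2 change of -0.54 ± 0.09 (SE) and a limma adjusted p of 0.0561 for IL6_ConCM against ConCM. Cxcl9, a chemokine gene induced by the same cytokine, was at 8.57 and 8.73 in ConCM and at 8.02 and 7.89 in IL6_ConCM, a change of -0.69 (limma adjusted p = 0.0586). Both IL6_ConCM arrays lay below both ConCM arrays in these genes. Iigp1, an interferon-induced GTPase gene, was at -0.48 (limma adjusted p = 0.0586) and Rnf213 at -0.50 (0.0629). Cxcl10, the relative of Cxcl9, was at -0.45 with a limma adjusted p of 0.635.

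Furin, the gene of a protease that activates many secreted proteins, was at 10.24 and 10.19 in ConCM, at 9.86 and 9.66 in IL6_ConCM and at 10.11 and 10.25 in PlGFCM. Its change with IL-6 was -0.45 at a limma adjusted p of 0.0723, and the direct difference from PlGFCM did not pass (0.208). Il17ra, the receptor chain for IL-17A and IL-17F, was at 0.48 (limma adjusted p = 0.0619). Sgk1, a salt-responsive kinase gene, was at 0.70 (limma adjusted p = 0.0814).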
